A study of Mus musculus with 10 samples.

Results

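Where the transcription factor p63 sat around 10 mouse genes of the epithelial to mesenchymal transition was read from 1 deposited list of p63 peaks in keratinocytes, the main cells of the epidermis. The 10 genes were taken by name. The 7 mesenchymal genes were the transcription factor genes Snai1, Snai2, Zeb1, Zeb2, Twist1 and Twist2 and the filament gene Vim, and the 3 epithelial genes were Cdh1, Epcam and Ovol2. A peak counted for a gene if any base of it lay inside the gene or within 50 kb of either end, and 9 of the 8451 peaks in the list met this rule. The list combines 2 p63 ChIP-seq libraries, made with antibody 4A4, from 2 similar mouse keratinocyte lines named MK1 and MK2, with 1 library each. The series also holds 6 histone libraries (H3K4me1, H3K4me3 and H3K27ac, 2 each) and 2 libraries of input chromatin from the same lines, which were not analysed here. No treatment, genotype, strain or age of the lines is given in the labels used here.

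In an epithelial to mesenchymal transition, cells give up their junctions and polarity and gain the ability to migrate. SNAI, ZEB and TWIST proteins drive it, in part by binding E-boxes in the promoters of epithelial genes such as Cdh1 and repressing them. OVOL2, GRHL2 and microRNAs of the miR-200 family act in the other direction, and p63 itself is known for keeping basal cells of the epidermis epithelial. The title of the series sets the mouse p63 landscape against the human one, and human sites were not analysed here.

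The list gives chromosome, start and end, with no height, score or count, which leaves the depth unknown and the 2 lines without a spread between them. Each count below is therefore a description of 1 list, with no replicate error and no test. A gene with no peak had none that passed the authors' processing, which does not show that p63 was absent there. Positions are 1-based on mm10, and gene extents are those of RefSeq on GRCm38.p6, the same assembly. Genes used as marks of basal keratinocytes had peaks under the same rule: Krt5 had 4, Krt14 2, Trp63 4 and Itgb4 5. Over all protein-coding genes, 40.8% had at least 1 peak by this rule and 9.73% had at least 3. Whether neighbouring genes lay nearer to the peaks of these marks was not examined.

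Both kinds of gene had p63 peaks nearby, and neither kind had them throughout. Of the 7 mesenchymal genes, 4 had a peak, and of the 3 epithelial genes, 2 did. The same rule gave a peak to 40.8% of the 21779 protein-coding genes. The mesenchymal genes had 5 peaks in 1.08 Mb of gene and flank, or 4.61 per Mb, and the epithelial genes had 4 in 0.409 Mb, or 9.78 per Mb. The windows of all protein-coding genes together held 4.27 per Mb. The order turned with a window of 25 kb, where mesenchymal genes had 5.45 peaks per Mb and epithelial genes 3.86. Vim had 2 peaks and Snai1, Snai2 and Twist2 had 1 each, while Zeb1, Zeb2 and Twist1 had 0. Zeb1 and Zeb2 are 184.1 and 133.9 kb long, so much of the mesenchymal window belongs to genes with no peak. Among epithelial genes Cdh1 had 3, Ovol2 had 1 and Epcam had 0. With so few genes the members' shares cannot be set apart from that of all genes.

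**Figure D1:**
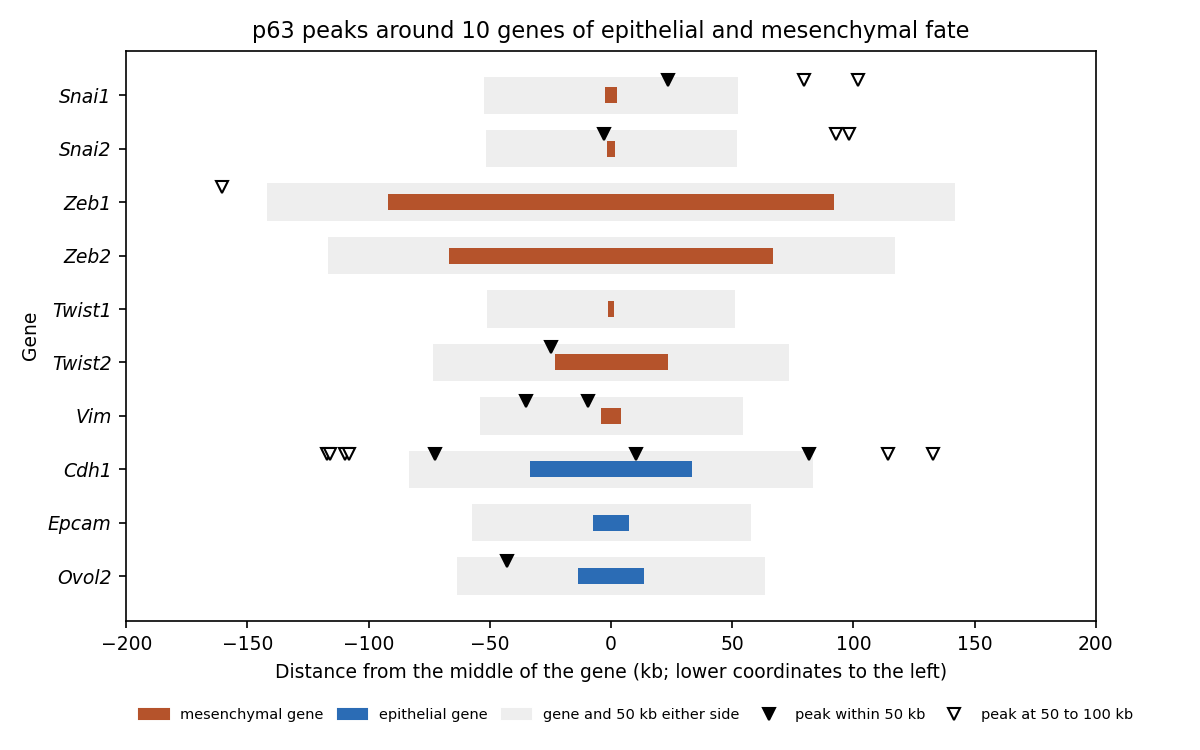
Map of p63 peaks around the 10 genes, with the distance from the middle of each gene in kb on the horizontal axis. Coloured bars are gene bodies, grey bars add 50 kb on either side, filled triangles are the 9 peaks counted and open triangles are peaks at 50 to 100 kb. A reader should see that the triangles of Snai2, Twist2 and 1 of Vim sit next to the gene, and that Cdh1 has the only peak inside a gene body of the 10.

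The Snai genes encode zinc finger repressors that bind E-boxes. Snai2, whose product is also called Slug, had the peak closest to any mesenchymal gene. It spanned chromosome 16 at 14704602 to 14704866, was 265 bp wide and ended 0.986 kb below the gene's lower end. The gene itself lies at 14705852 to 14709395. No other protein-coding gene reached into its window, and Snai2 was the nearest gene of this peak. Beyond the window, a 479 bp peak and a 172 bp peak lay 90.8 and 96.4 kb above the gene, and Snai2 was the nearest protein-coding gene of both. At Snai1, on chromosome 2 at 167538195 to 167542814, the 1 peak was farther off. It spanned 167564038 to 167564294, was 257 bp wide and lay 21.2 kb above the gene, which is the side of its 3′ end, with its midpoint 26.0 kb past the start. This peak lay inside the noncoding gene Gm11476, and Snai1 was its nearest protein-coding gene. At 77.3 and 99.4 kb above Snai1 lay peaks of 221 and 300 bp, whose nearest protein-coding genes were Ube2v1 and Tmem189.

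The Twist genes encode basic helix-loop-helix factors that are active in mesenchyme, and they differed in p63 peaks. Twist2, on chromosome 1 at 91801461 to 91848034, had 1 peak at 91799694 to 91799909. It was 216 bp wide, and its midpoint was 1.66 kb before the gene's start. The nearest other peak was 260 kb away, between midpoints. Twist1, on chromosome 12 at 33957671 to 33959831, had its nearest peak 345 kb below it, and 19.8% of protein-coding genes lay farther from one. The Twist2 promoter is printed because it is the member promoter closest to a peak, which ended 1.30 kb below this window. It covers 250 bases before to 50 after the start, chr1:91801211-91801510 on the plus strand, from RefSeq on GRCm38.p6, with no capitals because it holds no E-box of the letters CAGGTG on either strand.
Twist2 promoter: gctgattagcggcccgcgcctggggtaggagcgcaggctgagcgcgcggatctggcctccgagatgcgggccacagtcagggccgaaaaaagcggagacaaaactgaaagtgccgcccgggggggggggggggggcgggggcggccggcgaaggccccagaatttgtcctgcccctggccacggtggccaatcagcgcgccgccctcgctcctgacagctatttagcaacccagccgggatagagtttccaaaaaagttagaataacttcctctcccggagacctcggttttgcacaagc

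The Zeb genes, which encode the large zinc finger repressors targeted by miR-200, had no peak in their windows although they are the longest of the 10. Zeb1 spans 184.1 kb on chromosome 18 at 5591327 to 5775468. Its nearest peak, 248 bp wide at 5522908 to 5523155, lay 68.2 kb below the gene, outside the 50 kb limit, and Zeb1 was its nearest protein-coding gene. Zeb2 spans 133.9 kb on chromosome 2 at 44983512 to 45117442. Its nearest peak lay 1207 kb above and the nearest on the other side 2010 kb below, so the gene sat in a stretch of 3351 kb with no peak. A peak was farther away than that for 5.79% of protein-coding genes. Of the 2427 protein-coding genes of 100 kb or longer, 51.0% had a peak inside or within 50 kb.

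Vim encodes vimentin, the intermediate filament protein of mesenchymal cells, and is a marker of the transition more than a driver. It lies on chromosome 2 at 13574311 to 13582826 and had 2 peaks, both before its start. The nearer one spanned 13569056 to 13569285, was 230 bp wide and had its midpoint 5.14 kb before the start, inside the noncoding gene Gm9875. The other, at 13543165 to 13543433 and 269 bp wide, lay inside the neighbouring gene Trdmt1. Its midpoint was 1.36 kb from the start of Trdmt1, which encodes an RNA methyltransferase, and 31.0 kb from that of Vim.

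Among epithelial genes, Cdh1 encodes E-cadherin, the cadherin of epithelial junctions. It spans 66.9 kb on chromosome 8 at 106603350 to 106670247 and had 3 peaks, and 3 or more were reached by 9.73% of protein-coding genes. A 349 bp peak at 106646757 to 106647105 lay within the gene body, 43.6 kb above the lower end and 23.3 kb below the upper end. Exons and introns are not given in the annotation used here. A 409 bp peak at 106563836 to 106564244 lay 39.1 kb below Cdh1 and was nearer to Cdh3, at 7.13 kb. A 182 bp peak at 106718320 to 106718501 lay 48.1 kb above Cdh1, inside Tango6, and was the counted peak closest to the 50 kb limit; the closest one beyond it was that of Zeb1. Between 50 and 100 kb from Cdh1 lay 6 more peaks. Of these, 2 were inside Tango6, 396 bp wide at 80.7 kb and 283 bp wide at 99.2 kb. The other 4, of 365 to 499 bp, lay inside Cdh3, which encodes P-cadherin, a classical cadherin of basal keratinocytes. The nearest of them was 74.3 kb from Cdh1. Cdh3 had 5 peaks by the same rule, and 1 of them is the 409 bp peak also counted for Cdh1.

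Ovol2 encodes a zinc finger factor that holds cells in the epithelial state and represses Zeb1. It lies on chromosome 2 at 144305175 to 144332080 and had 1 peak of 404 bp at 144275431 to 144275834, 29.3 kb below the gene and inside Mgme1. Ovol2 is transcribed from its upper end, so this peak was on the side of its 3′ end, with its midpoint 55.7 kb past the start in the promoter table. Its relative Ovol1 also had 1 peak, 7.14 kb away. Epcam encodes a cell surface adhesion molecule found on many simple epithelia. It lies on chromosome 17 at 87635979 to 87651127 and had its nearest peak 140 kb below it, with 37.1% of protein-coding genes farther from one.

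**Figure D2:**
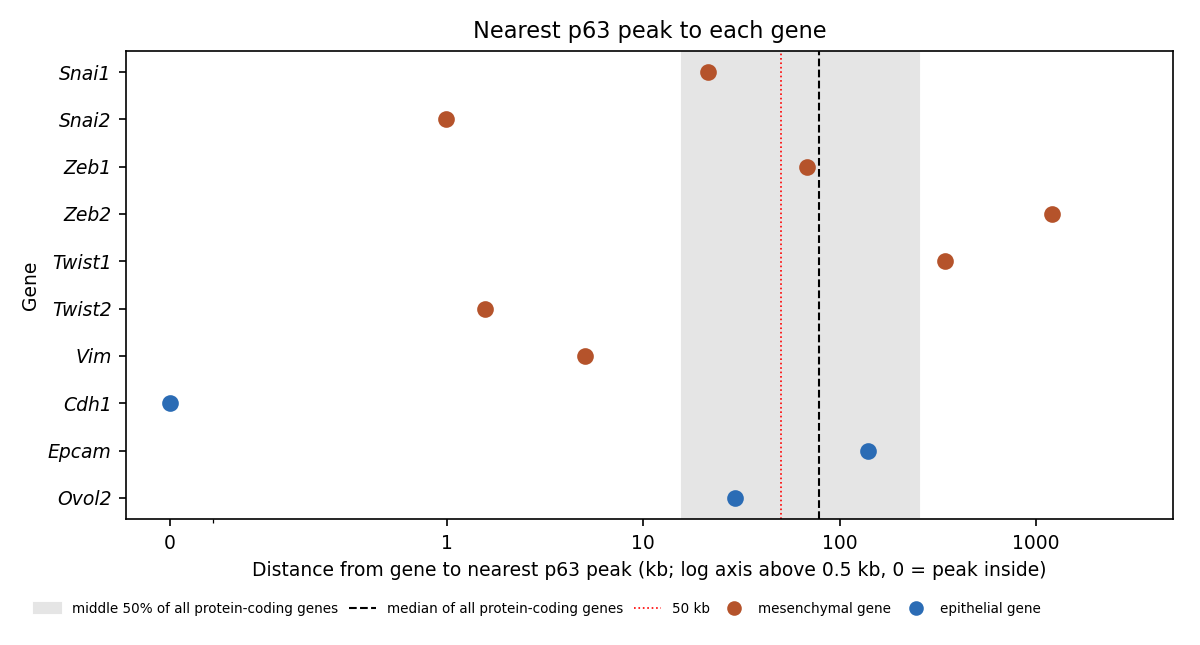
Distance in kb from each of the 10 genes to the edge of its nearest p63 peak, on a log axis above 0.5 kb where 0 means a peak inside the gene. The shaded band holds the middle 50% of all protein-coding genes, from 15.8 to 254 kb, and the dashed line is their median of 78.8 kb. Snai2, Twist2, Vim and Cdh1 lie left of the band and Twist1 and Zeb2 right of it.

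No peak touched a promoter window of the genes whose starts are in the promoter table. That table holds 10 windows of 7 members (Snai1, Zeb2, Twist1, Twist2, Vim, Epcam and Ovol2) and none of Snai2, Zeb1 or Cdh1. Over all 32851 windows of this length, 353 (1.07%) were touched by a peak. The E-box letters CAGGTG, searched on both strands, stood in the windows of Snai1 and Epcam, against 20.2% of all windows. In Snai1 the match began 126 bases before the start. The 10-base half-site of the p53 family was found in Zeb2 alone, in 2 of its overlapping windows, against 8.36% of all windows. The AP-1 letters TGANTCA were also found in Zeb2 alone, in 1 window, against 7.81%. Such a match is a run of letters and not a bound site. The Epcam promoter is printed because it is the member window with the most E-box letters, which are in capitals and begin 187 and 19 bases before the start. It is chr17:87635729-87636028 on the plus strand, from RefSeq on GRCm38.p6.
Epcam promoter: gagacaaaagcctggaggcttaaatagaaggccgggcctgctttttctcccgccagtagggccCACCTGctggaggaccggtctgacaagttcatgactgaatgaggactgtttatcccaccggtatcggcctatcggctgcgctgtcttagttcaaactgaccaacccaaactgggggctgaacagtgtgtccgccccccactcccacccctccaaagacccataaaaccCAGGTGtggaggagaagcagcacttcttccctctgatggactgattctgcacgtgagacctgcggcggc

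Within the 50 kb window, peaks of the mesenchymal genes lay closer to the gene they were counted for than those of the epithelial genes. Of the 5 peaks at mesenchymal genes, 3 were within 10 kb of the gene, against 1 of 4 at epithelial genes. Over all 17225 pairs of a protein-coding gene and a peak inside it or within 50 kb, 42.4% had the peak inside or within 10 kb. A peak inside or within 10 kb was there for 21.4% of protein-coding genes. The median distance of the peak midpoint from the gene was 5.14 kb at mesenchymal genes and 34.4 kb at epithelial genes. The order was the same within 100 kb, at 49.7 kb for mesenchymal and 75.4 kb for epithelial genes. Of the 10 epithelial peaks within 100 kb, 9 were counted for Cdh1. The order turned within 25 kb, where the median was 3.40 kb at mesenchymal genes and the 1 epithelial peak left was inside Cdh1. The gene was the nearest protein-coding gene for 4 of 5 mesenchymal peaks, all but the Vim peak in Trdmt1, and for 1 of 4 epithelial peaks, the one inside Cdh1. That share was 41.7% over all such pairs. Numbers of neighbouring genes differed too: the windows of Snai1, Twist1 and Vim reached 2, 1 and 1 other protein-coding genes and those of the other mesenchymal genes 0, against 2 at Cdh1, 1 at Epcam and 4 at Ovol2. Their part in the difference was not tested. The distances overlapped, since Snai1 and Vim also had a peak over 20 kb away and Cdh1 had one inside it.

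By class of position, 4 of the 9 peaks lay inside a protein-coding gene, against 53.3% of all peaks. At mesenchymal genes that was 1 of 5, in Trdmt1, and at epithelial genes 3 of 4, in Cdh1, Tango6 and Mgme1. The peaks stood singly. None of the 9 had another peak within 10 kb, whereas 29.1% of all peaks did, and the nearest other peak was 25.9 to 260 kb away at mesenchymal genes and 32.7 to 180 kb away at epithelial genes.

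The 5 peaks counted at the mesenchymal genes were narrower than the median of the list, and with so few peaks this was not tested. The 5 widths were 257 bp at Snai1, 265 bp at Snai2, 216 bp at Twist2, and 269 and 230 bp at Vim. At the epithelial genes the widths were 409, 349 and 182 bp at Cdh1 and 404 bp at Ovol2. All 5 mesenchymal peaks were below the median of 305 bp of the whole list and 1 of 4 epithelial peaks was, as were 50.0% of all peaks. The medians were 257 bp at mesenchymal genes and 376.5 bp at epithelial genes, and the ranges overlapped because the 182 bp peak in Tango6 was the narrowest of the 9. The quartiles of the whole list were 242 and 392 bp. The 216 bp peak at Twist2 and the 230 bp peak at Vim were below the lower quartile, and the other 3 mesenchymal widths were between it and the median. Peaks at the further mesenchymal genes counted below were not narrower than the list as a whole. Their median width was 319 bp for 12 peaks at transcription factor genes and 307 bp for 27 peaks at marker genes. At the further epithelial genes it was 335.5 bp for 28 peaks at transcription and splicing factor genes and 343 bp for 55 at adhesion and polarity genes. The deposited file has no signal, so width cannot be set against strength of binding.

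**Figure D3:**
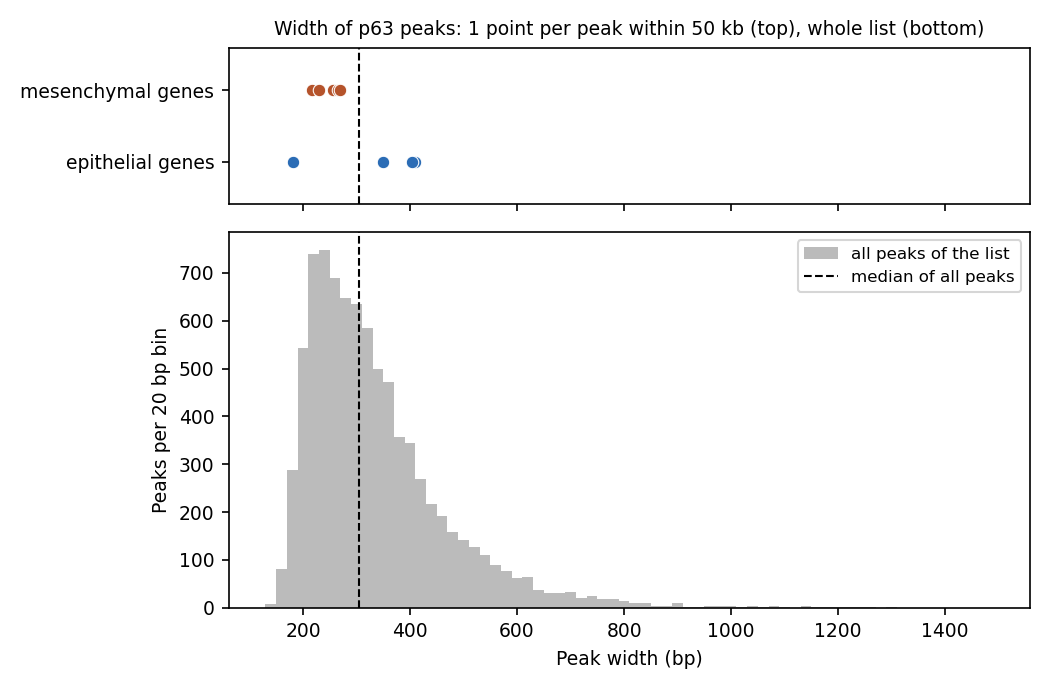
Width in bp of the 9 peaks at mesenchymal and epithelial genes (top, 1 point per peak) above the widths of all 8451 peaks in bins of 20 bp (bottom), with the list's median of 305 bp as a dashed line. The mesenchymal points lie between 216 and 269 bp, and 3 of 4 epithelial points lie above the median.

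Other genes of the transition were counted in 6 lists chosen with earlier results of these data known. Apart from the microRNA list, whether neighbouring genes lay nearer to the peaks counted for each list was not examined. Lists of mesenchymal genes had a peak about as often as all protein-coding genes (40.8%), and lists of epithelial genes and of signalling genes more often. Of 15 further mesenchymal transcription factor genes, 6 had a peak (40.0%), with a median of 0 peaks. Prrx2, a homeobox gene of mesenchyme, had 5, none of them inside it, Runx2 and Snai3 had 2 each and Foxc2 had 1. Prrx1, Foxc1 and Gsc had 0. The nearest peaks of Foxc1 and Gsc lay just outside the 50 kb limit, at 52.9 and 52.7 kb. So did those of Crb3, at 55.4 kb, and Tgfb2, at 52.9 kb, in the epithelial and signalling lists. Shares of the lists were not computed at other windows. Of 20 mesenchymal marker genes, 9 had a peak (45.0%). Mmp2, S100a4 and Sparc, which encode a matrix protease, a calcium-binding protein and a matrix glycoprotein, had 5 each. Tnc, which encodes tenascin C, had 3. Of these peaks, 2 lay inside Mmp2, 1 inside Sparc, 1 inside Tnc and 0 inside S100a4. Fn1, Cdh2, Col1a2 and Col3a1 had 0.

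Of 15 epithelial transcription and splicing factor genes, 11 had a peak (73.3%), with a median of 2. Grhl2, which encodes a guardian of epithelial identity, had 6 peaks of 268 to 622 bp, 3 of them inside the gene. Esrp2, a regulator of epithelial splicing, had 4 and Grhl3 had 3. Elf3, Elf5, Ehf and Foxa1 had 0. Of 20 epithelial adhesion and polarity genes, 16 had a peak (80.0%), with a median of 3. The polarity gene Scrib had 7, and Cdh3 and Cldn3 had 5 each, with 2 inside Scrib, 4 inside Cdh3 and 0 inside Cldn3. Cldn1, Cldn7, Ocln and Crb3 had 0. Genes in these lists share windows in places, as Cldn3 and Cldn4 do.

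Of 20 signalling genes of the transition, 17 had a peak (85.0%). The list mixes inducers with restraining genes such as Smad7, an inhibitor of TGF-beta signalling, and the Hippo kinase genes Lats1 and Lats2. Smad7 had 2 peaks and Lats1 had 1. Met, the receptor of hepatocyte growth factor, had 5 peaks, 4 of them inside the gene. Egfr had 4, all inside, the TGF-beta receptor gene Tgfbr1 had 4 and the receptor kinase gene Axl had 3. Tgfb2, Hgf and Lats2 had 0. The median length was 14.2 kb for the mesenchymal transcription factor genes and 33.9 kb for the marker genes, 18.9 and 30.4 kb for the 2 epithelial lists, and 63.8 kb for the signalling genes, against 17.2 kb for all protein-coding genes. The part of gene length in these shares was not tested.

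**Figure D4:**
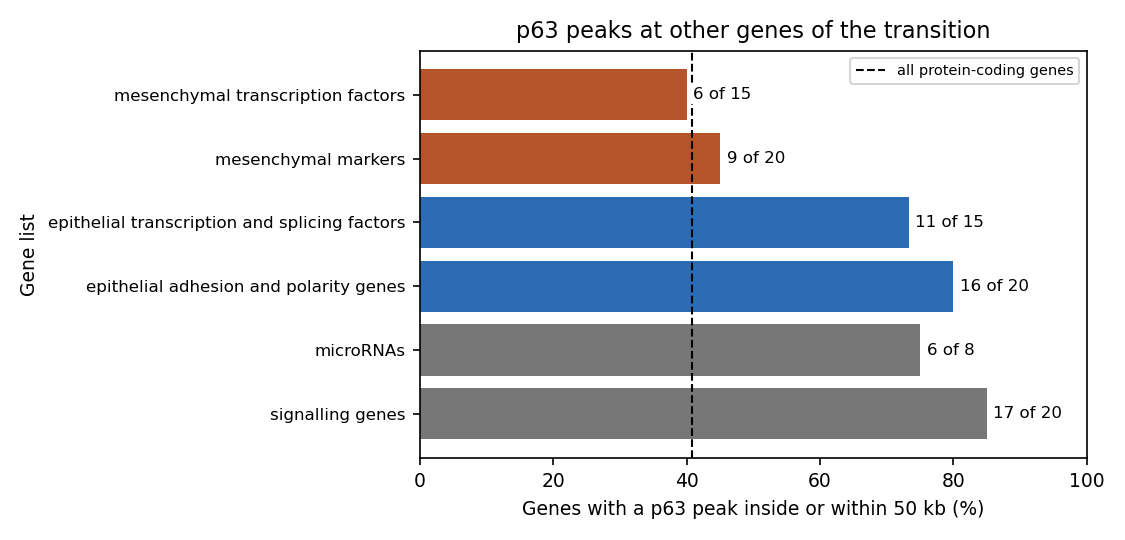
Percentage of the genes of 6 lists with a p63 peak inside or within 50 kb, with the count at the end of each bar and the 40.8% of all protein-coding genes as a dashed line. The 2 mesenchymal lists, at 40.0% and 45.0%, lie at the line, and the other 4 lie between 73.3% and 85.0%.

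MicroRNA genes whose products repress Zeb1, Zeb2 or Snai genes had a peak in 6 of 8 cases, against 38.8% of 1228 annotated microRNA genes. The 8 lie at 5 places in the genome apart from each other, so the 6 stand for fewer loci. The miR-200 family is split between a pair of clusters, and only 1 of them had peaks. Mir200b, Mir200a and Mir429 lie together on chromosome 4 and shared the same 4 peaks. The nearest, 421 bp wide at 156059280 to 156059700, had its midpoint 3.74 kb above Mir200b. Mir200c and Mir141, on chromosome 6, had 0. Mir205 had 8 peaks in its window, all above it on chromosome 1, from 215 to 747 bp wide, the nearest at 193508030 to 193508618 with its midpoint 0.794 kb away. Mir203, on chromosome 12, had 1 peak of 215 bp, and Mir34a, on chromosome 4, had 1 of 467 bp. Among protein-coding genes, Camk1g was nearest to all 8 peaks of Mir205. Ttll10 or 9430015G10Rik was nearest to the 4 peaks shared by Mir200b, Mir200a and Mir429. Aspg was nearest to the Mir203 peak and Gpr157 to that of Mir34a.

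Mature sequences from RefSeq on GRCm38.p6 are printed to show that the miR-200 members with and without a nearby peak carry the same seeds. Capitals mark the seed, bases 2 to 8. MiR-200b, miR-429 and miR-200c share the seed AAUACUG, and of these miR-200c comes from the cluster with no peak. MiR-200a and miR-141 share AACACUG, and miR-141 comes from the cluster with no peak. MiR-205 has a seed of its own.
mmu-miR-200b-3p: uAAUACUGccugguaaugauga
mmu-miR-429-3p: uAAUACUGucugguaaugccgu
mmu-miR-200c-3p: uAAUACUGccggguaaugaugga
mmu-miR-200a-3p: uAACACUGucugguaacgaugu
mmu-miR-141-3p: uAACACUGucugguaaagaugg
mmu-miR-205-5p: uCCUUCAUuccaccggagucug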

How the data were processed

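Per the labels, the deposited peak list was made by the authors with IDR (irreproducible discovery rate) on the MK1 and MK2 p63 ChIP-seq libraries. Bowtie 1.1.1, SAMtools 1.1 and the build mm10 are named, per the submitters' processing notes. The peak caller and its thresholds are not named in those notes or the labels. The deposited file has 3 columns, chromosome, start and end, and starts were converted to 1-based positions. Libraries were sequenced single-end, per the labels' protocols, so peak edges rest on inferred fragment ends.

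Genes came from RefSeq on GRCm38.p6. Of 49943 gene rows, 340 were left out because their end position, under 3 Mb on chromosomes apart from Y, marks a scaffold. That table has no strand or exons. Starts and strands came from a RefSeq promoter table (250 bases before to 50 after the start). Distances to a gene are from the peak edge unless the midpoint is named, and the nearest gene is that nearest to the midpoint. Peaks were counted with Python 3.11.15, NumPy 2.4.6 and pandas 2.3.3. The counts equalled those of BEDTools 2.31.1 for 21779 of 21779 protein-coding genes and were checked on simulated peaks.

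No test was run, since 1 pooled list without scores has no replicates. The 10 genes and the lists were chosen with earlier results of these data known. All 98 entries of the 6 further lists matched a gene, 1 by an older symbol. Genes named are the 10 members and, per list, the up to 4 with most peaks (ties by symbol), apart from some that are not reported here. Some genes with 0 peaks, and Ovol1, Cldn4, Smad7 and Lats1, were named after their values were seen. Alternatives were other windows, peak midpoints, nearest genes, wide peaks alone, another gene background and leaving out Vim.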

Additional observations from a re-analysis of the deposited data

How the results depend on the processing

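Of 52 values recomputed under the alternatives, 34 stayed close to the values in the report (counts within 1.5 times, medians within 1 SD of the peaks). The other 18 were mostly those of other windows, whose construction changes which peaks are counted. Some of the 34 could hardly move, so their number is no measure of stability. Another background cannot change how many members have a peak, and peak midpoints in place of edges changed no value. The SD allowed for epithelial widths was 106 bp, from 4 peaks. Mesenchymal genes had 3 peaks within 10 kb and 10 within 100 kb, against 1 within 10 or 25 kb and 10 within 100 kb at epithelial genes. Per Mb of window that was 5.73 at mesenchymal and 5.92 at epithelial genes within 10 kb, 5.45 at mesenchymal and 3.86 at epithelial genes within 25 kb, and 5.61 at mesenchymal and 14.1 at epithelial genes within 100 kb. Of the 10 epithelial peaks within 100 kb, 9 were counted for Cdh1, 1 for Ovol2 and 0 for Epcam. The epithelial values thus rest mostly on 1 gene, and leaving out Cdh1 was not run. Within 10 or 25 kb, 1 epithelial gene had a peak. The median width was 230 bp at mesenchymal and 349 bp at epithelial genes within 10 kb, and 252.5 bp at mesenchymal and 400 bp at epithelial genes within 100 kb. The median distance was 49.7 kb at mesenchymal genes and 75.4 kb at epithelial genes within 100 kb, and 0 at epithelial genes within 10 or 25 kb, where the 1 peak is inside Cdh1. Keeping only peaks whose nearest protein-coding gene is the member left 4 peaks at mesenchymal genes, and 1 peak in 1 gene, at a distance of 0, at epithelial genes. Keeping only peaks of at least the list's median width left 0 peaks in 0 mesenchymal genes and 3 in 2 epithelial genes, so no mesenchymal width or distance could be given there. Without Vim, mesenchymal genes had 3 peaks. With all 49603 annotated genes as background, 33.3% had a peak. The density per Mb by window was added after seeing the data. A stricter threshold, or leaving out MK1 or MK2, could not be run on a list with no score and no columns per line. No paired analysis was possible because the p63 libraries are pooled in 1 list and the results come from no test.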
